A study of Mus musculus with 4 samples.

Results

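The 4 genes B3GAT1, KLRG1, CD27 and CD28 encode, or make, surface markers that are used to stage CD8+ T cells. They were taken by exact gene symbol from the count tables, and each matched 1 of the 64253 genes listed. The study sorted CD8+ T cells with high CD11a, a mark of antigen experience, from the peripheral blood of patients given an antibody against PD-1 every 3 weeks in cycles of 4 doses. RNA was sequenced as 1 library from each of 4 groups: a responder after therapy, a non-responder after therapy, a responder before therapy and a non-responder before therapy. All 4 groups were sorted for the same cell type. The labels do not tie the libraries from after therapy to the patients sampled before it. The 2 samples from before therapy are named with a PD-1-positive tag, and no label says whether PD-1 entered the sort gate. The organism field names mouse, whereas the genes are human genes on hg38, so the data were read as human.

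CD8+ T cells change these markers as they go through repeated stimulation. Naive and early memory cells carry both CD27 and CD28. CD28 receives the costimulatory signal of CD80 and CD86 on antigen-presenting cells, while CD27 is a receptor of the TNF receptor family that binds CD70. Late differentiated cells commonly lose CD28, then CD27, and gain KLRG1, an inhibitory lectin-like receptor that binds cadherins, and CD57. CD57 is a sugar epitope, also called HNK-1, and B3GAT1 encodes the glucuronyltransferase that builds it, so the RNA reports the enzyme and not the epitope itself. The rule for these genes sets gain of B3GAT1 and KLRG1 against loss of CD27 and CD28.

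Library totals lay between 65500644 and 129773591 counts, and mitochondrial genes took between 3.37% and 5.43% of them. Levels are given as CPM, reads scaled to a common library size, with TMM factors, and intervals are 95% intervals for counting error alone. Without replicates, no comparison of 1 library with another carries a p-value. Summed T cell markers (CD3 and CD8 chains, CD2 and ITGAL, all 7 present in every library) stood at 5010 CPM in the responder library and 3440 CPM in the non-responder after therapy, against 4870 and 3840 CPM before therapy. Other cells' RNA differed more. The 10 monocyte and neutrophil markers summed to 1840 CPM in the responder library and 8660 CPM in the non-responder after therapy, against 100 and 154 CPM before therapy, with LYZ, the lysozyme gene, at 799, 3640, 8.29 and 34.4 CPM in the same order. The 5 epithelial markers summed to 161 CPM in the responder before therapy and to at most 7.99 CPM elsewhere. Their part in the values below was not tested. Fewer cells that express a gene and less RNA per cell cannot be told apart in bulk libraries.

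B3GAT1 (ENSG00000109956, chromosome 11: 134378504 to 134411918), the CD57 enzyme, was lower in both libraries from after therapy. It stood at 1.06 CPM (134 reads) in the responder library and 0.797 CPM (89 reads) in the non-responder after therapy, against 6.48 CPM (537 reads) and 8.41 CPM (558 reads) before therapy. Both libraries from after therapy lay below both from before it, and the counting intervals of the 2 sets did not overlap (at most 1.26 CPM after, at least 5.95 CPM before). How many of all genes were so split was not computed. B3GAT1 was the least abundant member, with 0.0698 to 0.736 CPM per kb of coding length.

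KLRG1 (ENSG00000139187, chromosome 12: 8950044 to 9010760), the inhibitory receptor, was the most abundant member in 4 of 4 libraries per coding length, at 62.2 to 180 CPM per kb. This ranking uses only the reads assigned to each member. CD27 shares most of its span with an antisense gene, described below, whose reads are not counted for it. KLRG1 stood at 467 CPM (58882 reads) in the responder library and 162 CPM (18046 reads) in the non-responder after therapy, against 360 CPM (29784 reads) and 212 CPM (14048 reads) before therapy. Both responder libraries were higher than both non-responder libraries.

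CD27 (ENSG00000139193, chromosome 12: 6444867 to 6451718), the receptor of CD70, was likewise higher in both responder libraries. It stood at 115 CPM (14487 reads) in the responder library and 75.1 CPM (8383 reads) in the non-responder after therapy, against 176 CPM (14590 reads) and 71.8 CPM (4766 reads) before therapy. The counting intervals of the 2 non-responder values overlapped, at of 73.5 to 76.7 CPM after and 69.8 to 73.9 CPM before therapy. CD27 and KLRG1 lie 2498326 bases apart on chromosome 12.

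CD28 (ENSG00000178562, chromosome 2: 203706475 to 203738912), the costimulatory receptor, was higher in both libraries from after therapy, the direction opposite to B3GAT1. It stood at 45 CPM (5680 reads) in the responder library and 55.7 CPM (6218 reads) in the non-responder after therapy, against 28.0 CPM (2321 reads) and 17.9 CPM (1189 reads) before therapy. Both libraries from after therapy lay above both from before it. For none of the members was the share of all genes that split the libraries by time or by response computed. Nothing is therefore read from these orders.

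**Figure D1:**
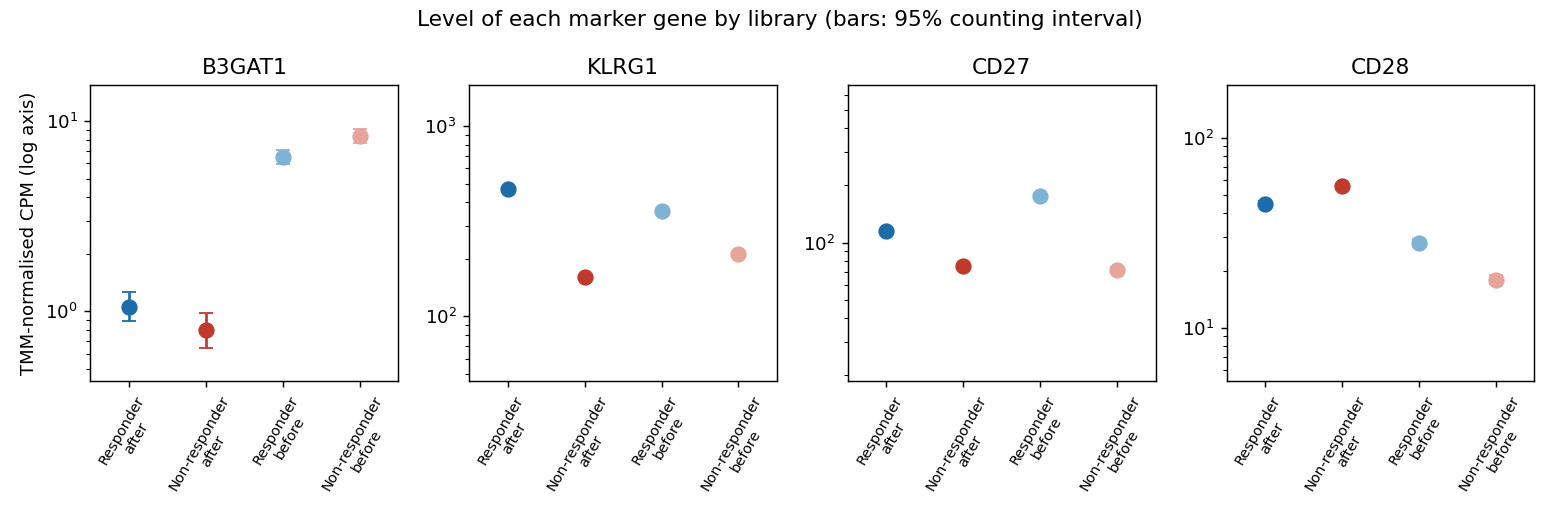
TMM-normalised CPM (log axis) of B3GAT1, KLRG1, CD27 and CD28 in each of the 4 libraries, with bars for the 95% counting interval. B3GAT1 lies at 1.06 and 0.797 CPM after therapy and at 6.48 and 8.41 CPM before it, whereas KLRG1 and CD27 are higher in both responder libraries.

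The range between the lowest and the highest library was 10.5-fold for B3GAT1, 2.89-fold for KLRG1, 2.45-fold for CD27 and 3.11-fold for CD28. The SD of the log2 level over the 4 libraries was 1.75 for B3GAT1, which exceeded that of 93.2% of the 16442 genes with a mean of at least 1 CPM. It was 0.70, 0.61 and 0.73 for KLRG1, CD27 and CD28, above 69.9%, 62.4% and 72.0% of genes. B3GAT1 met the minimum mean through the libraries from before therapy, where it was high, so nothing is read from its rank. The other 3 members were not far from the middle of all genes.

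The first comparison set the responder against the non-responder after therapy. KLRG1 was 2.89-fold higher in the responder (log2 ratio 1.53, interval 1.51 to 1.55), and 98.3% of the 12454 genes that reached 5 CPM in either library had a lower ratio. CD27 was 1.53-fold higher in the responder (0.61, interval 0.57 to 0.65), and CD28 was 1.24-fold lower (-0.31, interval -0.36 to -0.25). B3GAT1 did not reach 5 CPM in either library, and its ratio of 0.41 (interval 0.02 to 0.82) rests on 134 and 89 reads. Of the 3 members that reached 5 CPM, 1 was at least 2-fold apart, where 14.7% of all genes were, 5.97% higher and 8.74% lower in the responder. With the libraries scaled to their CD3 and CD8 chains, the ratios were 1.03 for KLRG1, 0.11 for CD27, -0.81 for CD28 and -0.09 for B3GAT1, so the sign of B3GAT1 turned under that scale. The median of all genes with at least 1 CPM moved by -0.50 under it.

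Before therapy, CD27 was the member that stood furthest apart. It was 2.45-fold higher in the responder (log2 ratio 1.29, interval 1.25 to 1.34), and KLRG1 was 1.70-fold higher (0.76, interval 0.74 to 0.79). CD28 was 1.56-fold higher in the responder (0.64, interval 0.54 to 0.75), and B3GAT1 was 1.30-fold lower (-0.38, interval -0.55 to -0.20). All 4 members reached 5 CPM, and 1 of them was at least 2-fold apart. Among the 12345 genes tested, 20.8% were, 12.3% higher and 8.51% lower in the responder. CD27 was 0.97 on the log2 scale, under 2-fold, when scaled to the CD3 and CD8 chains, and the other ratios were then 0.44 for KLRG1, 0.32 for CD28 and -0.70 for B3GAT1. The same responder library held the epithelial transcripts described above.

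Neither KLRG1, CD27 nor CD28 was at least 2-fold apart in the same direction at both times. Of the 11567 genes that reached 5 CPM at both times, 1.97% were on the higher side and 1.93% on the lower side. B3GAT1 did not reach 5 CPM after therapy and is not among these genes. The response ratio after therapy minus that before therapy was 0.77 for KLRG1 (interval 0.73 to 0.80) and 0.79 for B3GAT1 (interval 0.36 to 1.21). It was -0.68 for CD27 (interval -0.74 to -0.62) and -0.95 for CD28 (interval -1.07 to -0.84). The late markers therefore had a larger ratio after therapy than before it and the early markers a smaller one, in 1 library per group and with no test. For B3GAT1 the ratio after therapy rests on 1.06 and 0.797 CPM, under the minimum of 5 CPM. How many of all genes had such differences was not computed.

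The second comparison set libraries from after therapy against those from before it. In the responder, B3GAT1 was 6.08-fold lower after therapy (log2 ratio -2.60, interval -2.89 to -2.33). It reached 5 CPM only in the library from before therapy, as it did in the non-responder pair, so nothing is read from the shares of all genes in these pairs. CD27 was 1.53-fold lower (-0.62, interval -0.65 to -0.58). KLRG1 was 1.30-fold higher (0.38, interval 0.36 to 0.40) and CD28 1.61-fold higher (0.68, interval 0.61 to 0.75). Of the 4 members 1 was at least 2-fold apart, where 13.3% of 12287 genes were, 8.66% higher and 4.61% lower after therapy.

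In the non-responder, B3GAT1 was 10.5-fold lower after therapy (-3.39, interval -3.74 to -3.07). CD28 was 3.11-fold higher (1.64, interval 1.55 to 1.73), below the 95th percentile of all genes, which lay at 2.40 in this pair. KLRG1 was 1.31-fold lower (-0.39, interval -0.42 to -0.36), and CD27 was 1.05-fold higher (0.06, interval 0.01 to 0.12). Of the 4 members 2 were at least 2-fold apart, where 23.9% of 12615 genes were, 16.3% higher and 7.56% lower after therapy. B3GAT1 was at least 2-fold lower after therapy in both response classes. Of 11670 genes, 1.46% were at least 2-fold lower in both and 4.07% higher in both, and B3GAT1 passed the minimum only through the libraries where it was high.

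A part of patients, of a possible PD-1 gate and of other cells' RNA in these differences cannot be told apart from time. PDCD1, the PD-1 gene, stood at 29.0 CPM in the responder library and 7.90 CPM in the non-responder after therapy, against 31.6 and 4.90 CPM before therapy. On the scale of the CD3 and CD8 chains, B3GAT1 was -2.67 in the responder and -3.28 in the non-responder after against before therapy, and CD28 was 0.62 and 1.75.

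**Figure D2:**
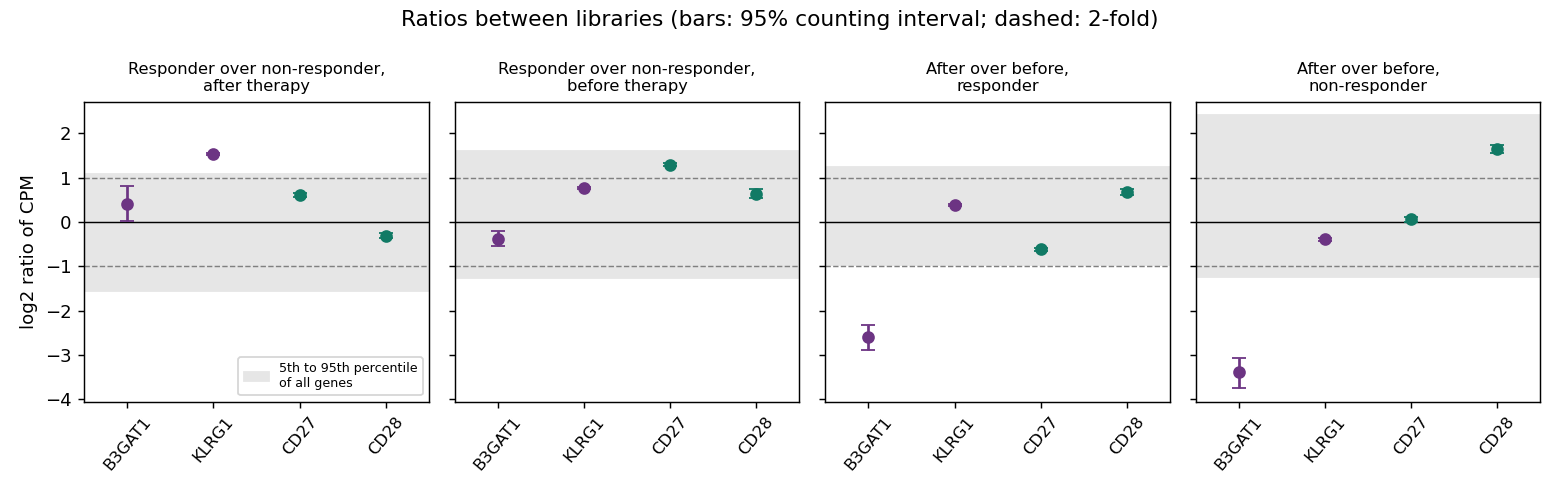
Log2 ratio of CPM for each member in the 4 comparisons, with bars for the 95% counting interval, dashed lines at 2-fold and a grey band from the 5th to the 95th percentile of all genes with at least 5 CPM. B3GAT1 lies below the band in both comparisons of after with before therapy (-2.60 and -3.39), where it reached 5 CPM only in the library from before therapy, and KLRG1 lies above it for responder over non-responder after therapy (1.53).

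The additive model used all 4 libraries, with response and time as its terms and 1 residual degree of freedom. By edgeR's quasi-likelihood test it called 0 of 24113 genes (0%) for response and 0 (0%) for time, although 2119 and 2732 genes had an unadjusted p under 0.05. For response, KLRG1 was 1.13 ± 0.266 (log2 ratio ± SE, edgeR adjusted p = 0.558) and CD27 0.93 ± 0.246 (edgeR adjusted p = 0.558). CD28 was 0.15 ± 0.329 (edgeR adjusted p = 0.926), and B3GAT1 was -0.0066 ± 0.545 (edgeR adjusted p = 0.999). For time, B3GAT1 was -3.02 ± 0.562 (edgeR adjusted p = 0.409) and CD28 1.14 ± 0.333 (edgeR adjusted p = 0.414). CD27 was -0.29 ± 0.245 (edgeR adjusted p = 0.687) and KLRG1 -0.024 ± 0.263 (edgeR adjusted p = 0.986). No member passed in this test.

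The calls differed between tools. DESeq2 on the same design called 946 genes for response (4.42% of 21420), and KLRG1 was among them (DESeq2 adjusted p = 0.0145), while CD27 was not (DESeq2 adjusted p = 0.056). For time it called 1555 genes (7.50% of 20720), among them B3GAT1 (DESeq2 adjusted p = 0.000295) and CD28 (DESeq2 adjusted p = 0.0312). With limma-voom 0 genes passed for response, with 3007 at an unadjusted p under 0.05, and 2 for time, neither of them a member.

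The late markers were next set against the early ones within each library. The mean log2 CPM of B3GAT1 and KLRG1 minus that of CD27 and CD28 was -1.69 in the responder and -2.51 in the non-responder after therapy, against -0.54 and 0.23 before therapy. Both libraries from after therapy thus had the lower difference. The 2 late markers did not move as a pair. B3GAT1 alone, minus the mean of the early markers, was -6.07 and -6.33 after therapy in responder and non-responder, against -3.44 and -2.09 before therapy, whereas KLRG1 alone gave 2.70 and 1.32, against 2.36 and 2.56.

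Ratios between genes within a library do not depend on the scaling of the library. Per coding length, KLRG1 was 2.21 times CD27 in the responder after therapy (interval 2.17 to 2.25) and 1.17 times in the non-responder after therapy (interval 1.14 to 1.20). Before therapy the same ratio was 1.11 in the responder (interval 1.09 to 1.13) and 1.60 in the non-responder (interval 1.55 to 1.65). The responder was thus the higher library after therapy and the lower one before it. These ratios leave out the reads assigned to CD27-AS1, an antisense gene that overlaps CD27 and is described below. It held 0.501 to 0.593 reads per CD27 read, and each ratio would be lower with them added to CD27.

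KLRG1 was 19.5 times CD28 per coding length in the responder and 5.46 times in the non-responder after therapy, against 24.1 and 22.2 times before therapy. The non-responder library from after therapy stood apart from the other 3, in which the ratio lay within 19.5 to 24.1. CD27 was 8.84 times CD28 in the responder and 4.67 times in the non-responder after therapy, against 21.8 and 13.9 times before therapy. This ratio between the early markers was higher in both libraries from before therapy and, at each time, higher in the responder. B3GAT1 per CD28 was 0.0101 and 0.00612 after therapy in responder and non-responder, against 0.0989 and 0.201 before therapy. The coding length of B3GAT1 in the files, 11425 bases, is much longer than that of CD27 (1410 bases), and uneven coverage along a transcript would change each ratio between genes.

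**Figure D3:**
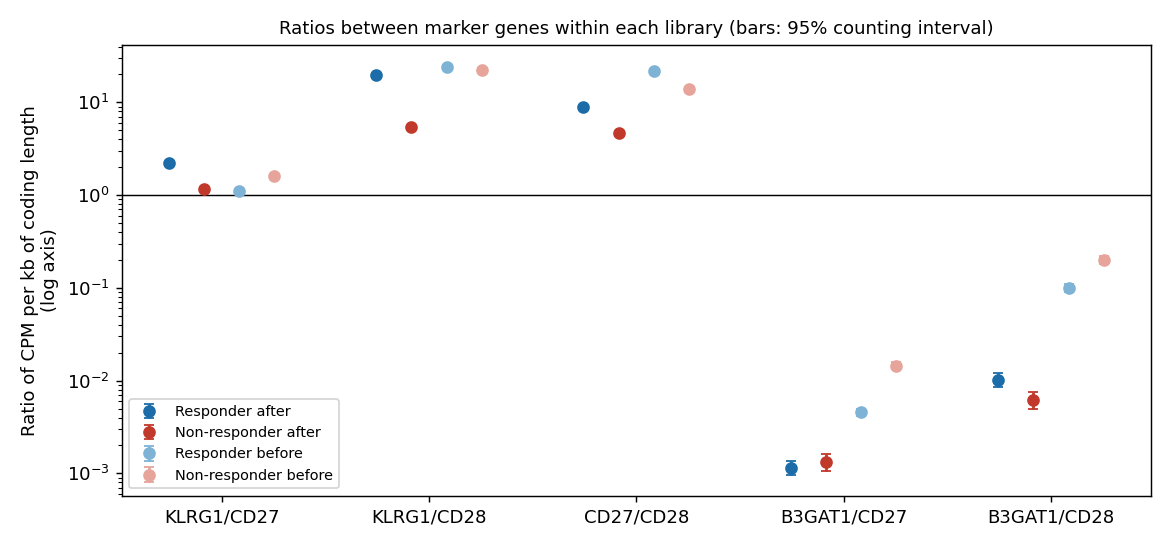
Ratio of CPM per kb of coding length (log axis) for 5 pairs of members within each library, with bars for the 95% counting interval. KLRG1/CD28 is 5.46 in the non-responder after therapy and 19.5 to 24.1 in the other libraries, and both B3GAT1 ratios are lower in the libraries from after therapy.

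CD27 shares its place in the genome with an antisense gene. CD27-AS1 (ENSG00000215039, chromosome 12: 6439001 to 6451567) covers 6701 of the 6852 bases that CD27 spans, and the strand setting of the counting is not given, so reads of the 2 genes cannot be told apart with certainty. CD27-AS1 held 0.501 reads per CD27 read in the responder (interval 0.487 to 0.515) and 0.501 in the non-responder (interval 0.483 to 0.520) after therapy. Before therapy the figures were 0.505 in the responder (interval 0.491 to 0.519) and 0.593 in the non-responder (interval 0.566 to 0.621). The ratio was the same within counting error in 3 libraries and higher in the fourth. The CD27-AS1 ratios of responder over non-responder were 0.61 after and 1.06 before therapy, beside 0.61 and 1.29 for CD27. With the counts of both genes summed, the CD27 ratio was 0.61 after and 1.21 before therapy, and in the non-responder after against before therapy it was -0.02, against 0.06 for CD27 alone. TAPBPL, a relative of the MHC class I chaperone tapasin, overlaps the end of CD27 by 29 bases, and its response ratios were 0.40 after and 0.27 before therapy.

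The profiles of the 4 members over the libraries were compared by the root mean square difference of their centred log2 levels. KLRG1 and CD27 were the closest pair, at 0.398, and 8.40% of 11743 genes lay nearer to KLRG1 than CD27 did. B3GAT1 and CD28 were the farthest pair, at 2.12. B3GAT1 lay 1.60 from KLRG1, the other late marker, and CD27 lay 0.821 from CD28, the other early marker, so neither pair named by the rule had like profiles.

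The genes with the profile nearest to B3GAT1 were SLC1A7, HES6, RP11-973H7.1, TM4SF19 and A2M-AS1, at 0.24 to 0.45. SLC1A7, a glutamate transporter, stood at 4.30 CPM in the responder library and 2.43 CPM in the non-responder after therapy, against 29.3 and 26.2 CPM before therapy. Nearest to KLRG1 were HSD17B7P2, LAX1, ZSCAN30, ZSCAN9 and ZNF561, at 0.065 to 0.085. LAX1, an adaptor that dampens lymphocyte receptor signals, stood at 64.4 and 22.3 CPM after therapy in responder and non-responder, against 47.9 and 25.5 CPM before therapy. Nearest to CD27 were ZNF671, B3GALT4, MAGEF1, TET1 and NUDT18, at 0.022 to 0.047, and nearest to CD28 were IFT88, SPTLC2, ZFP90, EDEM3 and ARMCX5, at 0.032 to 0.07. These 4 libraries give the likeness of profiles as a description only.

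The partners of each receptor were read from lists, and a list member was measured where it had at least 1 CPM in either library of a pair. In the CD28 family, the inhibitory relative CTLA4 stood at 22.2 CPM in the responder library and 15.5 CPM in the non-responder after therapy, against 13.3 and 12.9 CPM before therapy. CD86, a CD28 ligand of antigen-presenting cells, stood at 14.0 and 54.3 CPM after therapy, against 0 and 0.286 CPM before therapy, where a count of 0 allows up to 0.0362 CPM (3 counts). The monocyte markers were high in the same 2 libraries from after therapy.

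Of the 14 genes that act below CD28, 0 were at least 2-fold apart between responder and non-responder after therapy, and 1 was higher and 1 lower before therapy. Among all genes with at least 1 CPM, 8.14% were at least 2-fold higher and 13.8% lower in the responder after therapy, and 16.7% and 13.4% before therapy. The medians of the list were 0.22 after and 0.13 before therapy, beside 0.03 and 0.08 for all genes measured. On the scale of the CD3 and CD8 chains they were -0.28 and -0.20, beside -0.47 and -0.25 for all genes. PIK3R1, the regulatory subunit of PI3 kinase that binds the CD28 tail, stood at 469 CPM in the responder library and 720 CPM in the non-responder after therapy, against 126 and 400 CPM before therapy. LCK, the kinase that starts receptor signalling, stood at 1090 and 665 CPM, against 1290 and 671 CPM. PIK3CD, the catalytic subunit of PI3 kinase in lymphocytes, was 0.61 after and 0.55 before therapy on the log2 scale.

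Of the 10 genes of the CD27 pathway, 1 was at least 2-fold higher and 1 at least 2-fold lower in the responder after therapy, and 1 and 2 before therapy, beside the shares of all genes just given. Its medians were 0.08 and -0.21, beside 0.03 and 0.08 for all genes, and -0.43 and -0.54 on the scale of the CD3 and CD8 chains. CD70, the ligand of CD27, stood at 4.45 CPM in the responder library and 1.30 CPM in the non-responder after therapy, against 6.24 and 3.57 CPM before therapy. TRAF5, an adaptor that binds the CD27 tail, stood at 105 and 71.1 CPM after therapy, against 83.5 and 31.1 CPM before therapy. RELB, a subunit of the alternative NF-kB pathway, was lower in the responder at both times, at 13.5 and 28.6 CPM after therapy, against 10.7 and 52.7 CPM before therapy. SIVA1, a protein that binds the CD27 tail, had ratios of -0.40 after and -0.47 before therapy.

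Of the 5 KLRG1 partners, the cadherin ligands CDH1, CDH2 and CDH4 had no count in either non-responder library, which allows up to 0.0269 CPM after and 0.0452 CPM before therapy. In the responder before therapy they stood at 0.978, 6.17 and 1.04 CPM, where the epithelial markers summed to 161 CPM. In the responder after therapy they stood at 0.547, 0 and 0.0159 CPM, where the epithelial markers summed to 1.81 CPM and a count of 0 allows up to 0.0238 CPM. INPP5D, the phosphatase SHIP1 that KLRG1 recruits, lay between 261 and 324 CPM in the 4 libraries. The median of the 4 measured partners in the responder over the non-responder before therapy was 3.87, or 2.30 with counts of 0 set at 3 counts per library, and it rests on these cadherins. Among the 4 genes tied to the CD57 epitope, B3GAT2 and B3GAT3, paralogs of B3GAT1, lay between 21.0 and 39.2 CPM and between 30.0 and 51.2 CPM. CHST10, the sulfotransferase that completes HNK-1, stood at 14.1 CPM in the responder library and 8.88 CPM in the non-responder after therapy, against 7.93 and 24.4 CPM before therapy. NCAM1, a carrier of HNK-1 and a marker of NK cells, stood at 10.2 and 8.96 CPM after therapy, against 4.29 and 6.93 CPM before therapy. After over before therapy, the log2 ratios of B3GAT2, B3GAT3, CHST10 and NCAM1 were 0.25, -0.64, 0.83 and 1.24 in the responder and 0.90, -0.58, -1.46 and 0.37 in the non-responder. Past 2-fold were NCAM1 in the responder, which was higher, and CHST10 in the non-responder, which was lower.

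The wider differentiation programme was read from 3 further lists. Of the 17 late effector genes, 7 were at least 2-fold higher and 0 at least 2-fold lower in the responder after therapy (median 0.96), and 3 and 0 before therapy (median 0.34). At the same minimum of 1 CPM, 8.14% of all genes were at least 2-fold higher and 13.8% lower in the responder after therapy, and 16.7% higher and 13.4% lower before therapy, and the medians of all genes were 0.03 and 0.08. With the CD3 and CD8 chains as the scale, 1 late effector gene was at least 2-fold higher and 0 lower after therapy. Before therapy, 1 was higher and 1 lower on that scale. The medians were then 0.46 and 0.02, beside -0.47 and -0.25 for all genes. With TMM factors, PRF1, the pore-forming perforin, CX3CR1, the fractalkine receptor, and PRSS23, a serine protease, exceeded 2-fold in favour of the responder at both times. By the counts above, at most 1 of them did so on the scale of the CD3 and CD8 chains. PRSS23 stood at 123 and 49.9 CPM after therapy, against 212 and 93.4 CPM before therapy. CD244, a receptor shared with NK cells, was 1.24 after and 0.82 before therapy on the log2 scale.

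After against before therapy, late effector genes were lower in the non-responder, where 8 of 17 were at least 2-fold lower and 1 was higher, with a median of -0.90 beside 0.08 for all genes, of which 13.4% were at least 2-fold lower and 19.7% higher. In the responder 2 of 17 were lower and 0 higher, with a median of -0.40 beside 0.03 for all genes, of which 10.5% were lower and 10.7% higher. Among these genes ZNF683, the transcription factor HOBIT, stood at 43.3 CPM in the responder library and 59.6 CPM in the non-responder after therapy, against 227 and 160 CPM before therapy. FGFBP2, a secreted product of cytotoxic lymphocytes, stood at 176 and 91.5 CPM, against 435 and 445 CPM. These 2 were chosen after their values were seen, since they were low after therapy as B3GAT1 was. KLRG1 in the responder, at 467 CPM after and 360 CPM before therapy, did not share that direction.

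Of the 12 early memory genes, a list without CD27 and CD28, 0 were at least 2-fold apart between responder and non-responder after therapy and 2 favoured the responder before therapy, with medians of -0.23 and 0.16. Of all genes, 8.14% were at least 2-fold higher and 13.8% lower after therapy, and 16.7% higher and 13.4% lower before therapy. On the scale of the CD3 and CD8 chains, 1 of the 12 was at least 2-fold lower after therapy and 1 higher before therapy, and the medians were -0.73 and -0.17, beside -0.47 and -0.25 for all genes. IL7R, the receptor for interleukin 7, stood at 474 CPM in the responder library and 326 CPM in the non-responder after therapy, against 287 and 143 CPM before therapy. BACH2, a repressor that keeps T cells quiescent, was lower in the responder at both times, at 8.16 and 13.3 CPM after therapy, against 10.1 and 15.6 CPM before therapy. FOXP1 and CD55 were also lower in the responder at both times, by ratios of -0.38 and -0.34 after and -0.60 and -0.47 before therapy.

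The 4 genes of CD27-positive effector memory cells had positive response ratios at both times, 1 of them at least 2-fold after and 3 before therapy, with medians of 0.71 and 1.11. Of all genes, 8.14% were at least 2-fold higher after and 16.7% before therapy. On the scale of the CD3 and CD8 chains, 0 of the 4 were at least 2-fold higher after and 1 before therapy, with medians of 0.20 and 0.78. GZMK, the granzyme of such cells, stood at 475 CPM in the responder library and 316 CPM in the non-responder after therapy, against 268 and 129 CPM before therapy. The transcription factor EOMES stood at 360 and 221 CPM, against 209 and 93.6 CPM. CXCR3, a chemokine receptor, stood at 34.8 and 21.2 CPM, against 79.8 and 49.4 CPM. GZMK and EOMES were higher after therapy in both response classes, as CD28 was, and CXCR3 was lower in both, as B3GAT1 was.

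**Figure D4:**
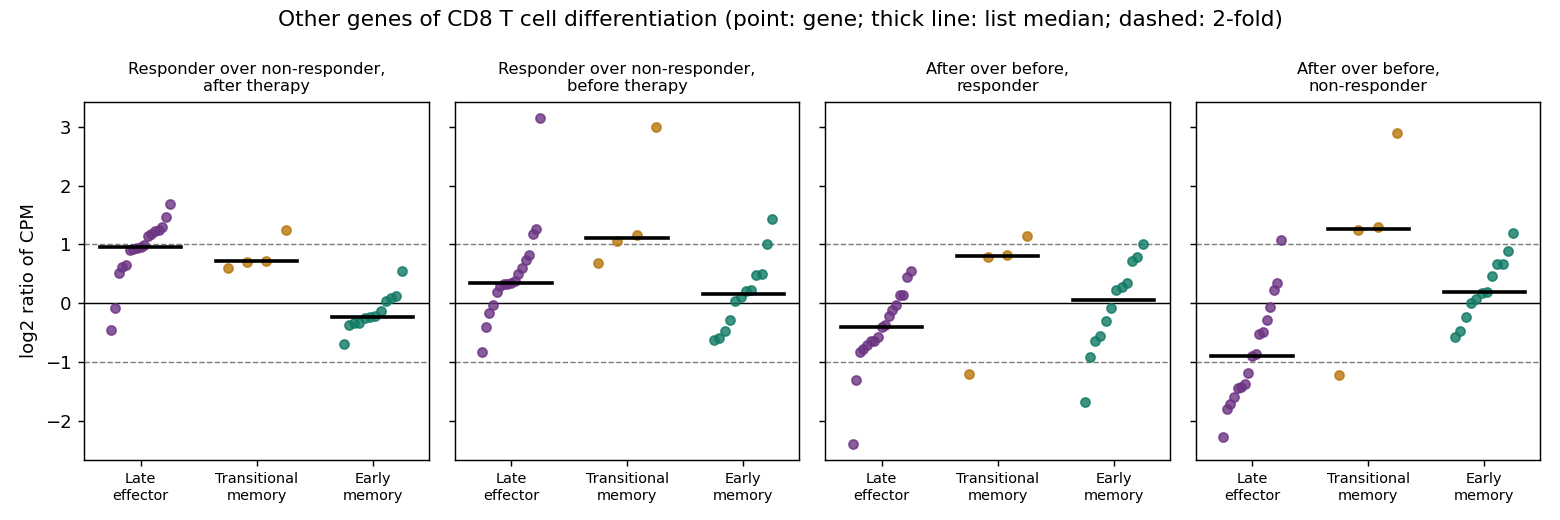
Log2 ratio of CPM for the 17 late effector, 4 transitional memory (CD27-positive effector memory) and 12 early memory genes in the 4 comparisons, with list medians as thick lines and dashed lines at 2-fold. The late effector median is 0.96 for responder over non-responder after therapy and -0.90 for after over before therapy in the non-responder, while the early memory medians lie between -0.23 and 0.19.

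Other lymphocytes also carry these markers. The 7 NK cell markers summed to 376 CPM in the responder library and 694 CPM in the non-responder after therapy, against 308 and 217 CPM before therapy. TYROBP and FCER1G, which monocytes also express, made up much of the highest sum, at 274 and 277 CPM. The other markers of the list did not share 1 direction. KLRF1, an NK receptor, stood at 209 and 103 CPM after therapy, against 96.2 and 83.7 CPM before therapy, and NCAM1 was also higher after therapy. NCR1 stood at 8.83 and 4.92 CPM, against 16.3 and 13.9 CPM. SH2D1B stood at 21.5 and 13.4 CPM, against 41.4 and 12.7 CPM, and KLRC1 at 13.1 and 13.4 CPM, against 33.5 and 9.42 CPM. CD4, which helper T cells and monocytes express, stood at 11.6 and 94.9 CPM after therapy, against 4.50 and 4.73 CPM before therapy, and the 4 CD4 and regulatory T cell markers summed to 28.1 and 114 CPM, against 13.4 and 11.8 CPM. The B cell list, 6 genes, summed to 87.1 and 74.8 CPM, against 68.0 and 51.7 CPM, with MS4A1 at 77.5 and 55.0 CPM, against 25.1 and 31.9 CPM, while CD22 and PAX5 had no count in the responder after therapy, which allows up to 0.0238 CPM each. CD28 was highest in the library with the highest CD4 level, and the part of CD4+ T cells in it was not tested. The 4 gamma-delta T cell markers summed to 527 and 415 CPM after therapy, against 541 and 485 CPM, and the 4 MAIT cell markers to 75.6 and 147 CPM, against 126 and 78.6 CPM. Dendritic cell markers summed to 4.53 and 53.8 CPM, platelet markers to 15.2 and 161 CPM and red cell markers to 3.93 and 5.44 CPM after therapy, against 1.8 and 3.0, 24.6 and 53.2, and 2.86 and 21.6 CPM before therapy.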

How the data were processed

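CD8+ T cells with high CD11a were sorted from blood and cDNA was amplified from 1 ng of RNA by the SMARTer Ultra Low method, then read as pairs of 101 bases on an Illumina HiSeq, per the labels' protocols. The processing used bcl2fastq 1.8.4 and TopHat2 with the build hg38, per the submitters' processing notes. The deposited files hold raw counts per gene, per the file headers. How reads were counted, on which strand and against which annotation is not given in the sources used here. Of the 64253 genes, 4763 on alternate contigs, on chromosome Y, or XIST and TSIX were left out of tables and fits.

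Levels used TMM factors over all genes kept, with a prior count of 0.5 for log2 ratios, and 95% intervals that cover counting error only. Ratios between libraries or between genes had exact conditional binomial intervals. CPM levels had exact Poisson intervals, and differences of ratios had intervals by normal approximation. Amplified cDNA without molecular identifiers is not a count of independent molecules, and with so little RNA a transcript can also be missed. The threshold for a gene apart was 2-fold, with at least 5 CPM in either library, or 1 CPM for lists. Tests used edgeR 4.0.16 in R 4.3.3 (filterByExpr, response and time as terms, quasi-likelihood test, two-sided, Benjamini-Hochberg over all genes, adjusted p under 0.05). DESeq2 1.42.0 and limma 3.58.1 were alternatives, beside other scaling, filters, prior counts and designs. The SE is the log2 ratio divided by the square root of F. The fit was also run on simulated counts as a check of the code. Good recovery was required only for counts that varied less between libraries than these data. With no replicate per group, SE and p-values rest on the interaction of response and time in these 4 libraries, moderated by information shared across genes. They do not measure the spread among patients or repeat libraries. One treatment label places every sample after a cycle, against the group label, which was followed.

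The members and lists were chosen with earlier results of these data known. All 71 list genes and 60 marker genes were found. Named genes are the members, up to 4 genes per list with the largest smaller response ratio of one sign over both times and at least 5 CPM in the highest library, 5 nearest profiles per member (mean of at least 5 CPM and 50 reads in the highest library, without receptor segment, HLA and KIR genes), genes overlapping a member and defining cell markers. PDCD1, CHST10, B3GAT2, the cadherins, ZNF683, FGFBP2, KLRF1, NCR1, SH2D1B, KLRC1, TYROBP, FCER1G, CD22 and PAX5 lie outside this rule and were chosen after their values were seen. Some genes that the rule takes are left out of the text and not reported here.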

Additional observations from a re-analysis of the deposited data

Results flagged for a closer look

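For each of the 4 members, the ratio of 1 comparison had opposite signs in its 2 settings, with 1 library on each side, and none of these differences was tested. B3GAT1 in the responder over the non-responder was 0.41 after therapy and -0.38 before it, and CD28 was -0.31 after and 0.64 before. KLRG1 after over before therapy was 0.38 in the responder and -0.39 in the non-responder, and CD27 was -0.62 in the responder and 0.06 in the non-responder. The B3GAT1 ratio after therapy turned to -0.09 on the scale of the CD3 and CD8 chains. The CD27 value of 0.06 turned to -0.02 with CD27-AS1 counts added.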

How the results depend on the processing

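The count of members at least 2-fold apart was the same under every scaling and prior count run, except before therapy between responder and non-responder, where it was 0 and not 1 with the CD3 and CD8 chains as the scale. Under that scale the median of all genes moved by -0.50 after and -0.32 before therapy, since the mean of these chains was lower in the non-responder libraries, and 613 genes were at least 2-fold higher and 4086 lower after therapy, beside 1399 and 2365 with TMM, and 2105 and 3555 before therapy, beside 2931 and 2357. Library scaling cancels in the late minus early difference by construction, and a prior count of 2 gave -1.68 in the responder and -2.49 in the non-responder after therapy, beside -1.69 and -2.51. For response, DESeq2 called 946 genes where edgeR called 0. For time, DESeq2 called 1555, limma-voom 2 and edgeR without a filter 2, where edgeR with the filter called 0. Fitted ratios near 0 changed sign. For response, B3GAT1 was 0.045 with library size only and 0.015 without a filter, and CD28 was -0.027 without the time term. For time, KLRG1 was 0.044 with limma-voom and 0.12 without the response term. Leaving out 1 library leaves no residual degree of freedom, and the fitted ratio is then that of the remaining pair. For response it ranged from -0.38 to 0.41 for B3GAT1, from 0.76 to 1.53 for KLRG1, from 0.61 to 1.29 for CD27 and from -0.31 to 0.64 for CD28. For time it ranged from -3.39 to -2.60 for B3GAT1, from -0.39 to 0.38 for KLRG1, from -0.62 to 0.06 for CD27 and from 0.68 to 1.64 for CD28. The share of genes at least 2-fold apart was higher with a minimum of 1 CPM than with 5 CPM in every comparison. Between responder and non-responder it was 21.9% beside 14.7% after therapy and 30.1% beside 20.8% before it. After against before therapy it was 21.1% beside 13.3% in the responder and 33.1% beside 23.9% in the non-responder. No paired analysis was possible because each group holds 1 library and the labels do not tie libraries to patients. The summed CD27 and CD27-AS1 counts were chosen after the data were seen. Depth limits B3GAT1 most, with 89 and 134 reads after therapy.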
